A study of Mus musculus with 36 samples.

Results

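Genes that define glutamatergic pyramidal neurons and their cortical layers were followed across genotype and time after a forced swim. The 9 genes were chosen by name, with earlier results of these data known. Each matched 1 of the 55470 gene rows of the deposited count files. Slc17a7, Neurod2 and Neurod6 mark glutamatergic identity, Cux1, Cux2 and Rorb mark the upper layers and layer 4, and Bcl11b, Tbr1 and Foxp2 mark the deep layers. All 9 passed the filter on low counts, so each was tested in every comparison.

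The samples were 36 libraries of ribosome-bound RNA from mouse cortex, made by the RiboTag method. In this method a Cre recombinase switches on an HA-tagged copy of the ribosomal protein Rpl22, and an antibody to the tag pulls down the ribosomes of those cells with their RNA. By the genotype labels every mouse carried HA-Rpl22(f/+) and Camk2a-Cre(+/-) on the C57BL6JL strain, though the extract protocol gives Rpl22 as f/f, so the pulldown sampled cells in which the Camk2a promoter had driven Cre at any time, and not 1 layer or projection type. The WT group was Shank3(+/+), and the group called Shank3 was Shank3(deltaC/+), with 1 mutated allele of the synaptic scaffold gene Shank3 in every cell. The WT mice were littermates of the Shank3 mice, and ages and sexes were not used here. Cohort 1 held 3 WT naive, 3 Shank3 naive, 6 WT and 5 Shank3 libraries, the swum mice being sampled at 1 h. Cohort 2 held 4 WT naive, 4 Shank3 naive, 5 WT and 6 Shank3 libraries, with the swum mice sampled at 4 h. Swum mice were compared only with the naive mice of their own cohort. In bulk RNA of this kind, fewer cells of a type and less RNA per cell cannot be told apart.

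Slc17a7 encodes the vesicular glutamate transporter VGLUT1, which loads glutamate into synaptic vesicles of most cortical excitatory neurons. Neurod2 and Neurod6 are basic helix-loop-helix transcription factors that switch on during pyramidal neuron differentiation and stay on in the adult cortex. The remaining members are transcription factors whose expression differs by layer. Cux1 and Cux2 are homeodomain factors of the callosal upper-layer neurons, and Rorb is a nuclear receptor that marks layer 4. Bcl11b, also called Ctip2, marks subcerebral projection neurons of layer 5, Tbr1 specifies corticothalamic neurons of layer 6, and Foxp2 is found in layer 6 neurons.

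Neurod factors bind E-boxes, which have the letters CANNTG. The promoters of Slc17a7 and Tbr1, which rose at 4 h and have no gene opposite, of Neurod2, which fell, and of its paralog Neurod6 are shown with every E-box in capitals. They are RefSeq windows of the GRCm38.p6 build, from 250 bases before to 50 bases after the annotated start, 5′ to 3′ on the gene's strand.
Slc17a7, chr7:45163671-45163970, plus strand: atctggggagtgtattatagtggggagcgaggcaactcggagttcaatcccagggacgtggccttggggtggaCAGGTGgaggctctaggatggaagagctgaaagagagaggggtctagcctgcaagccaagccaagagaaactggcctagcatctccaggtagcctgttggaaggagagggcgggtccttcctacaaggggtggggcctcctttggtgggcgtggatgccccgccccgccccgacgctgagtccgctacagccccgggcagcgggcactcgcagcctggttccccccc
Tbr1, chr2:61804203-61804502, plus strand: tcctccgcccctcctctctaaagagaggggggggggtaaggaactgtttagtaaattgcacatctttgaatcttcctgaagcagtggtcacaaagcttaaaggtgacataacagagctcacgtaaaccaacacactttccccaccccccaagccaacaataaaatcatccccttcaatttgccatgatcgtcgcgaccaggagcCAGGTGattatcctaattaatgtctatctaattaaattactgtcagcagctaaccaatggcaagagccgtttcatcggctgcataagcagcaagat
Neurod2, chr11:98329596-98329895, minus strand: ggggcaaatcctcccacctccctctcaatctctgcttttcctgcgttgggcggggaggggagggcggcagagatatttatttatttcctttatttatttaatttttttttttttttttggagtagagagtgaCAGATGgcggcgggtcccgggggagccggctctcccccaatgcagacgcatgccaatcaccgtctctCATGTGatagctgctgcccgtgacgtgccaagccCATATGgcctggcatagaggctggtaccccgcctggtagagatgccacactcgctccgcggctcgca
Neurod6, chr6:55681214-55681513, minus strand: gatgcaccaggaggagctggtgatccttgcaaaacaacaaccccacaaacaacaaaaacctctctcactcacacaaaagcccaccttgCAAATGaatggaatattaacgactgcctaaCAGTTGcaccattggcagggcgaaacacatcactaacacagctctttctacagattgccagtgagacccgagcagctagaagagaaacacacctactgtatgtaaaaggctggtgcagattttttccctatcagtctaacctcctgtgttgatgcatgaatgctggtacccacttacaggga
The windows held 1 E-box in Slc17a7, 1 in Tbr1, 3 in Neurod2 and 2 in Neurod6. An E-box was present in 72.3% of the 32851 windows of the same length in the table, so its presence in these 4 does not set them apart. The variant CAGATG, read on both strands and part of the E-box count, occurred once in Neurod2 and in none of the other 3 windows, against 17.2% of all windows. It also occurred once in 1 of the Cux2 windows, which are not shown. The variant CAGCTG was in none of the 4, against 16.3% of all windows. A match of letters is not a binding site. Windows were found for 8 of the 9 members.

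The libraries held 0.884 to 3.52 M counts each, with a median of 1.51 M. The files assign most counts of overlapping gene pairs on opposite strands to the antisense gene. Over 1813 such pairs, the share of counts on the coding rows, called the pair share below, ran from 10.7% to 33.1%. It rose with the swim. In WT mice the mean was 10.8% ± 0.18 (SD, n = 3) in naive and 14.4% ± 2.09 (n = 6) at 1 h (exact permutation test, two-sided, p = 0.0357), and 13.2% ± 1.402 (n = 4) in naive and 23.2% ± 5.31 (n = 5) at 4 h (exact p = 0.0159). The Shank3 means were 11.3% ± 0.57 (n = 3) in naive mice and 14.0% ± 1.81 (n = 5) at 1 h (exact p = 0.0714), and 13.1% ± 1.48 (n = 4) and 25.5% ± 7.23 (n = 6) at 4 h (exact p = 0.0190). How strand was set in the counting is not stated in the labels or headers. The pair share is therefore given beside the swim results. The targeted gene did not check the labels: Shank3 lay between 5.44 and 19.7 CPM (counts relative to the TMM-scaled library size) in the 18 WT libraries and between 7.18 and 34.6 in the 18 Shank3 libraries. The medians were 9.19 CPM in WT and 14.2 CPM in Shank3 libraries. Its row lies opposite an exon of another gene. Over all times it was higher in Shank3 mice by 0.65 ± 0.16 (SE) on the log2 scale. That difference had an unadjusted p of 0.000280 by edgeR but did not pass the threshold (adjusted p = 0.794).

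The labelled cell type was checked against marker lists. Genes with no gene opposite are given apart, but their share of a library's counts itself ran from 7.02% to 33.5%. The 6 other pyramidal identity genes free of an opposite-strand gene summed to between 1227 and 3705 CPM per library, led by Camk2a. The 8 endothelial and mural markers summed to at most 8.64 CPM, with Cldn5 at 0 in every library, and the 5 markers of oligodendrocyte precursors to at most 7.90 CPM. The 14 interneuron markers summed to between 31.8 and 149 CPM, led by Dlx1, and the 9 of them with no gene opposite to between 3.14 and 33.2 CPM. The 9 astrocyte markers summed to between 32.96 and 136 CPM, led by Slc1a2, and the 5 such genes to between 7.55 and 44.9 CPM. The 9 oligodendrocyte markers summed to between 71.6 and 326 CPM, led by Cnp, and the 5 such genes to between 5.73 and 33.9 CPM. Of 8 microglial markers, the 4 with no gene opposite summed to at most 2.31 CPM, while the whole list ran from 171 to 1092 CPM. Csf1r, which lies opposite an exon of another gene, held 97.3% of that list's counts. Among markers of other projection neurons, the 6 hippocampal genes summed to at most 3.78 CPM, with Dsp at 0, and the 4 thalamic genes to between 5.06 and 32.2 CPM. The 8 striatal genes summed to between 94.8 and 277 CPM, and the 6 of them with no gene opposite to between 28.7 and 87.2 CPM. Ppp1r1b, which lies opposite an exon of another gene, held 56.6% of the striatal list's counts.

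All members were detected, but none deeply. Together they held between 174 and 3588 counts per library, or 0.0131% to 0.112% of the total. Slc17a7 had 9255 counts over all 36 libraries, Neurod6 had 5381, Tbr1 had 4319 and Neurod2 had 3430. Cux2 had 1727, Bcl11b 1367, Cux1 1320 and Rorb 640. Foxp2 had 265 counts, and 2 libraries held none. Cux1 is the only member with an exon opposite another annotated gene. The antisense gene Gm16599 shares 394 exon bases with it and had 661 counts, so reads of the pair cannot be told apart if the strand was not used. Cux2 overlaps Gm15637 (54 counts) and Gm3970 (0 counts) without a shared exon base, and the other 7 members had no gene opposite.

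Per kilobase of exon, the 14 naive libraries put Neurod6 first at 34.0 ± 5.89 CPM per kb (SD, n = 14). Neurod2 followed at 25.2 ± 7.87 and Slc17a7 at 11.9 ± 3.497 CPM per kb. In the WT naive mice of cohort 1 alone Neurod2 was first, at 34.5 against 32.3 CPM per kb for Neurod6. Tbr1 was the highest layer gene at 5.75 ± 1.34 CPM per kb. Bcl11b stood at 1.97 ± 0.83, Cux2 at 1.37 ± 0.31, Cux1 at 0.692 ± 0.21, Rorb at 0.571 ± 0.34 and Foxp2 at 0.225 ± 0.18 CPM per kb. Neighbours whose mean ± SD overlapped were Neurod6 and Neurod2, Bcl11b and Cux2, Cux1 and Rorb, and Rorb and Foxp2. At 4 h the order of the first 4 was Neurod6, Slc17a7, Tbr1 and Neurod2 in both genotypes. In WT mice at 4 h, Slc17a7 reached 30.3 and Tbr1 13.5 CPM per kb, while Neurod2 stood at 11.4.

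**Figure D1:**
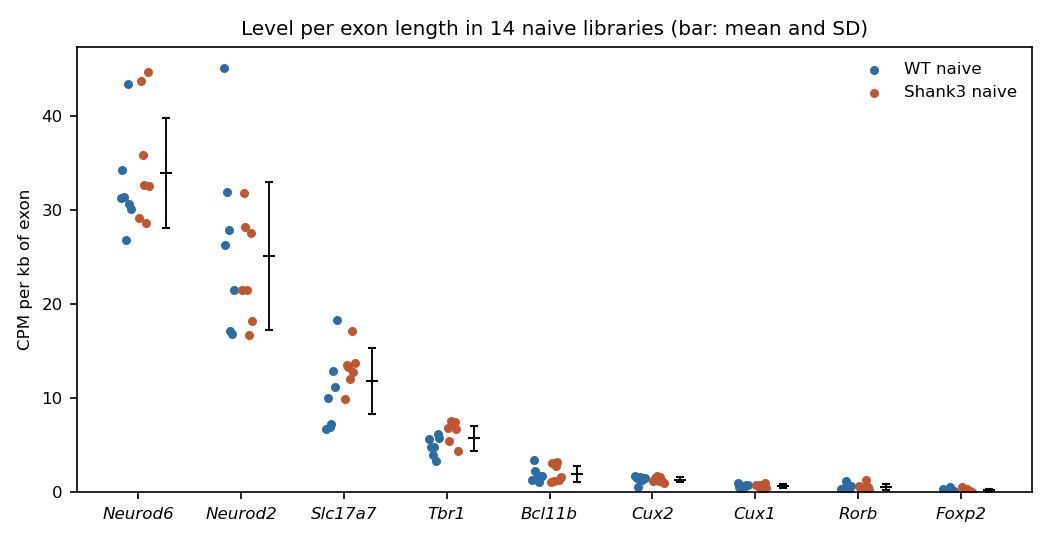
Level of each member per kilobase of exon (CPM per kb, vertical axis) in the naive libraries, with WT in blue and Shank3 in orange. Points are libraries and bars the mean and SD over 14. The 3 glutamatergic identity genes and Tbr1 stand above the other layer genes, and the genotypes overlap for every member.

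The first question was whether these genes differed with the mutation. No member passed the threshold in naive mice, at 1 h, at 4 h or over all times (edgeR quasi-likelihood test, Benjamini-Hochberg over 11341 genes). The share of all genes past the same threshold was 0.00882% in naive mice, 0% at 1 h, 0.00882% at 4 h and 0.0265% over all times. At an unadjusted p under 0.05, edgeR called 0 members in each of the 4 comparisons, limma 0, and DESeq2 called 1, Neurod2 at 4 h (unadjusted p = 0.0412). By edgeR, 4.75%, 1.81%, 2.01% and 2.72% of all genes were below that unadjusted p in naive mice, at 1 h, at 4 h and over all times. Over all times, Shank3 against WT differed by 0.13 on the log2 scale for Slc17a7 (95% interval -0.13 to 0.38), by 0.02 for Neurod2 (-0.18 to 0.22) and by -0.04 for Neurod6 (-0.22 to 0.14). The deep-layer gene Tbr1 differed by 0.17 (-0.11 to 0.45) and Bcl11b by 0.14 (-0.18 to 0.46). The upper-layer genes differed by 0.01 for Cux1 (-0.28 to 0.30), 0.03 for Cux2 (-0.25 to 0.30) and 0.04 for Rorb (-0.33 to 0.41). Foxp2, with the fewest counts, had an interval from -0.54 to 0.61. These intervals leave room for changes of that size and do not show that the genotypes are alike.

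In naive mice the genotype difference with the smallest p was that of Slc17a7. Its level was 36.3, 54.1 and 37.7 CPM in the WT mice of cohort 1 and 53.6, 73.2 and 72.1 CPM in the Shank3 mice. In cohort 2 it was 39.2, 69.8, 60.5 and 98.7 CPM in WT and 64.9, 92.5, 68.9 and 74.4 CPM in Shank3. The groups overlapped in both cohorts, and the mean difference of 0.39 ± 0.22 (SE) on the log2 scale had an unadjusted p of 0.0810 and an adjusted p of 1.00 by edgeR. The naive cohorts also differed from each other, and the groups at 1 h and 4 h come from different cohorts. Neurod2 was lower in the naive mice of cohort 2 than of cohort 1, by -0.55 ± 0.16 on the log2 scale (edgeR adjusted p = 0.0308), where 10.7% of all genes passed, 5.78% higher and 4.88% lower. It was the only member past the threshold there, and the call was lost when any 1 of 6 naive libraries was left out (adjusted p from 0.0591 to 0.109).

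**Figure D2:**
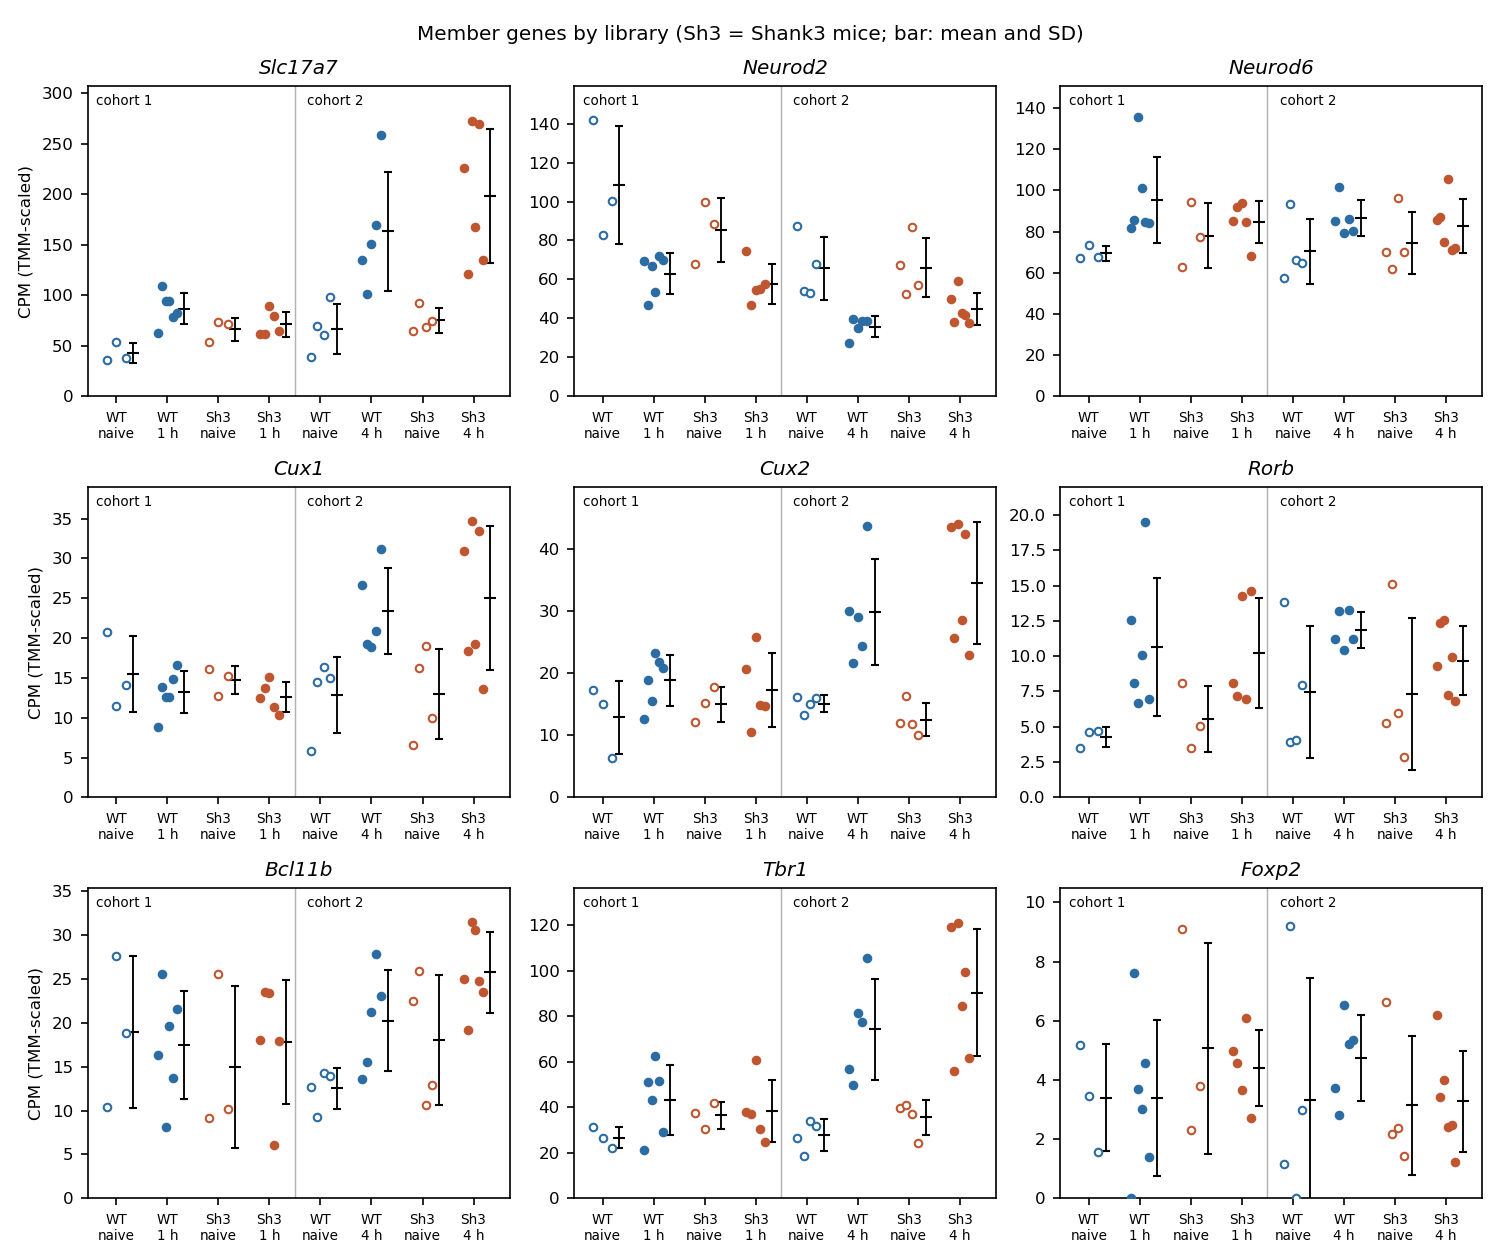
Level of each member in every library (CPM scaled by TMM, linear axes from 0). Open points are naive mice and filled points swum mice, WT in blue and Shank3 (Sh3) in orange, with the mean and SD beside each group. Slc17a7, Tbr1 and Cux2 stand higher at 4 h than in the naive mice of cohort 2 in both genotypes without overlap, and Neurod2 stands lower, with no overlap in WT and some in Shank3. The share of all genes without overlap was not counted.

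At 1 h after the swim, WT mice had more Slc17a7 and less Neurod2. In the WT naive mice Slc17a7 lay at 36.3, 54.1 and 37.7 CPM. At 1 h it ran from 62.9 to 109 CPM with a median of 88.3 over 6 libraries. The groups did not overlap, and the change was 1.02 ± 0.30 on the log2 scale (adjusted p = 0.0103). Neurod2 lay at 142, 82.8 and 100.4 CPM in naive WT mice and ran from 46.6 to 72.2 with a median of 67.9 at 1 h. Again no library of one group reached the other, and the change was -0.78 ± 0.21 (edgeR adjusted p = 0.00556). The share of all genes whose groups did not overlap was not counted, at 1 h or at 4 h. A lack of overlap is therefore a description and is not shown to be particular to these members. So 2 of 9 members were called, where 34.2% of all genes were, 16.9% higher and 17.3% lower. Without WT naive replicate 1, neither was past the threshold (adjusted p = 0.0532 for Slc17a7 and 0.0870 for Neurod2), and without WT naive replicate 3 Slc17a7 was not (adjusted p = 0.0557). Slc17a7 also lost its call with the pair share as a term (0.47, adjusted p = 0.0611) and in the fit of genes with no gene opposite (0.64, adjusted p = 0.0515), and Neurod2 on total counts (-0.21, adjusted p = 0.490).

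The other members did not pass in WT at 1 h. Neurod6 lay at 67.4, 73.6 and 67.5 CPM in naive mice and from 81.8 to 136 at 1 h without overlap, a change of 0.46 ± 0.20 (adjusted p = 0.0741). Rorb lay at 3.46, 4.60 and 4.71 CPM and then from 6.67 to 19.5, also without overlap, a change of 1.21 ± 0.52 (adjusted p = 0.0679). These Rorb levels rest on 2 to 4 counts in each naive library. Tbr1 had a difference of 0.73 ± 0.34 (adjusted p = 0.0861). The values for Cux2, Foxp2, Bcl11b and Cux1 were 0.56, 0.16, -0.12 and -0.17.

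In Shank3 mice at 1 h, edgeR called no member, and 12.2% of all genes passed. At an unadjusted p under 0.05 there was 1 member by edgeR, by DESeq2 and by limma, Neurod2 in each, and by edgeR 31.4% of all genes. Neurod2 lay at 67.7, 99.97 and 88.6 CPM in naive mice and at 74.8, 47.0, 54.7, 54.9 and 57.4 CPM at 1 h. One swum library lay within the naive range, and the change of -0.56 ± 0.22 had an adjusted p of 0.0723. Slc17a7 lay at 53.6, 73.2 and 72.1 CPM and then at 61.7, 61.3, 89.6, 79.3 and 65.0, a change of 0.11 ± 0.29 with an interval from -0.47 to 0.69. The difference of the Slc17a7 response between genotypes was -0.91 ± 0.41, with an unadjusted p of 0.0330 and an adjusted p of 1.00. No member, and 0% of all genes, passed the test of the difference between genotypes at 1 h or at 4 h, so the responses were not shown to differ. At an unadjusted p under 0.05, edgeR had 1 member at 1 h (Slc17a7) and 0 at 4 h, limma the same numbers and DESeq2 0 at both, while 4.13% and 2.66% of all genes were below it by edgeR.

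At 4 h, the same 5 members changed in both genotypes. Slc17a7, Tbr1, Cux2 and Cux1 rose and Neurod2 fell. Of all genes, 56% passed in WT (29% higher and 26.9% lower) and 62.1% in Shank3 (32.7% higher and 29.4% lower). A count of 5 of 9 is therefore close to the background. Among the 4822 genes with no gene opposite, 38.4% rose and 11.6% fell in WT, and 44.8% rose and 11.7% fell in Shank3. Their median change was 0.58 in WT and 0.62 in Shank3. For genes with an exon opposite another gene it was -0.51 and -0.64.

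Slc17a7 lay at 39.2, 69.8, 60.5 and 98.7 CPM in the naive WT mice and at 135, 102, 151, 169 and 259 CPM at 4 h. It rose by 1.29 ± 0.26 on the log2 scale, 2.44-fold (adjusted p = 0.000108). In Shank3 mice it lay at 64.9, 92.5, 68.9 and 74.4 CPM and then ran from 121 to 273 with a median of 197 over 6 libraries, a rise of 1.39 ± 0.25 (adjusted p = 1.92e-05). In neither genotype did a swum library fall within the naive range. For this and the other members at 4 h, the share of all genes with such separation was not counted.

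Tbr1 rose by a like amount. In WT mice it lay at 26.5, 18.4, 34.0 and 31.9 CPM and then at 56.6, 49.9, 81.5, 77.3 and 106, a rise of 1.401 ± 0.28 (adjusted p = 0.000119). In Shank3 mice it lay at 39.7, 41.1, 36.8 and 24.3 CPM and then from 55.8 to 121 with a median of 91.9, a rise of 1.33 ± 0.27 (adjusted p = 8.47e-05). The groups were separate in both genotypes. Within a library the ratio of Slc17a7 to Tbr1 counts, which no scaling affects, was 2.53 ± 1.09 in naive WT mice of cohort 2 and 2.19 ± 0.25 at 4 h, and 2.203 ± 0.62 and 2.202 ± 0.28 in Shank3 mice (SD, n = 4, 5, 4 and 6).

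The upper-layer gene Cux2 lay at 16.2, 13.2, 15.0 and 15.9 CPM in naive WT mice and at 29.9, 21.6, 29.0, 24.4 and 43.7 at 4 h, a rise of 0.99 ± 0.27 (adjusted p = 0.00229). In Shank3 mice it lay at 11.9, 16.2, 11.9 and 10.0 CPM and then from 22.9 to 44.0 with a median of 35.5, a rise of 1.42 ± 0.27 (adjusted p = 3.71e-05). No swum library overlapped the naive range. Its paralog Cux1 rose by 0.84 ± 0.28 in WT (adjusted p = 0.0121) and by 0.92 ± 0.28 in Shank3 (adjusted p = 0.00459). Cux1 groups were separate in WT and overlapped in Shank3, and its WT call was lost without WT naive replicate 4 (adjusted p = 0.0799) or without WT 4 h replicate 5 (adjusted p = 0.0536). With the counts of both strands added, Cux1 passed in neither genotype (0.37, adjusted p = 0.187, and 0.33, adjusted p = 0.213).

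Neurod2 was the member that fell. In WT mice it lay at 87.7, 54.0, 53.1 and 67.8 CPM and then at 27.1, 39.5, 34.9, 38.7 and 38.9, a change of -0.86 ± 0.20 (adjusted p = 0.000517). Every swum WT library was below every naive one. In Shank3 mice it lay at 67.6, 52.4, 86.7 and 57.3 CPM and then from 37.7 to 59.2 with a median of 42.2, with overlap, a change of -0.53 ± 0.19 (adjusted p = 0.0160). The Shank3 call held in 8 of 14 alternatives. It was lost without Shank3 naive replicate 6 (adjusted p = 0.119), by DESeq2 (0.0595), with RLE scaling (0.0578), without a filter (0.150) and without the 3 libraries high in ribosomal RNA (0.193). Its paralog Neurod6 did not follow it: the change was 0.30 in WT (interval -0.07 to 0.67) and 0.16 in Shank3 (-0.20 to 0.52), by edgeR. Its sign and call moved with the scaling: it was below 0 in the fit of genes with no gene opposite (-0.09 and -0.28), past the threshold on total counts (1.06, adjusted p = 0.000194, and 1.13, adjusted p = 3.54e-05), and past it by DESeq2 in WT (0.38, adjusted p = 0.0449). The count ratio of Neurod6 to Neurod2, chosen after its values were seen, was 0.658 to 1.73 in naive WT mice and 2.07 to 3.14 at 4 h, and 1.04 to 1.23 and 1.27 to 2.47 in Shank3 mice. At 1 h it was 0.476 to 0.889 and 1.17 to 2.03 in WT, and 0.871 to 0.942 and 1.14 to 1.96 in Shank3. The naive and swum ranges of this picked ratio were apart in all 4 comparisons, though the swum Shank3 range at 4 h began just above the naive one. How many other gene pairs were apart in the same way was not counted, so the separation is a description and is not shown to be particular to this pair.

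Rorb, Bcl11b and Foxp2 did not pass at 4 h by edgeR. Other settings called members in WT: Bcl11b passed by DESeq2 (0.77, adjusted p = 0.0497), with RLE scaling and without a filter, and Foxp2 passed by limma (1.47, adjusted p = 0.0447). In all, 7 members passed in WT at 4 h by DESeq2 and 6 by limma. By edgeR it was 5, where 56% of all genes passed. The shares of all genes by DESeq2 and limma are not reported here, so the higher counts cannot be set against a background. In the edgeR fit Rorb had a difference of 0.70 (interval -0.03 to 1.44) in WT and 0.20 (-0.50 to 0.89) in Shank3. Bcl11b had 0.68 (0.01 to 1.35, adjusted p = 0.0774) and 0.45 (-0.16 to 1.06). Foxp2 had 0.78 (-0.43 to 1.99) and 0.26 (-0.94 to 1.46), with 0 to 7 counts per naive library of cohort 2. A shift between upper- and deep-layer members was described by counts within a library, without a test. The count ratio of Cux1, Cux2 and Rorb to Bcl11b, Tbr1 and Foxp2 was 0.818 ± 0.07 in naive WT mice and 0.684 ± 0.17 at 4 h, and 0.591 ± 0.17 and 0.584 ± 0.10 in Shank3 mice.

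The 4 h changes moved with the pair share, and the plot of level against pair share gives both for 4 members. Across all 36 libraries the correlation of log2 level with log2 pair share was 0.95 for Slc17a7, 0.91 for Tbr1, 0.88 for Cux2, 0.77 for Cux1, 0.18 for Neurod6 and -0.69 for Neurod2. These points share groups, depth and scaling, so the values are descriptions. With log2 pair share as a term in the fit, the slope within groups was 1.30 for Slc17a7 (adjusted p = 6.83e-13), 1.27 for Tbr1 (7.00e-10), and 1.04 for both Cux1 (7.05e-06) and Cux2 (1.26e-06). For Neurod2 it was 0.06 (adjusted p = 0.797) and for Neurod6 -0.11 (0.533). Slopes passed for 62.9% of all genes. The median slope was 0.48 for genes with no gene opposite and 0.14 for all genes.

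**Figure D3:**
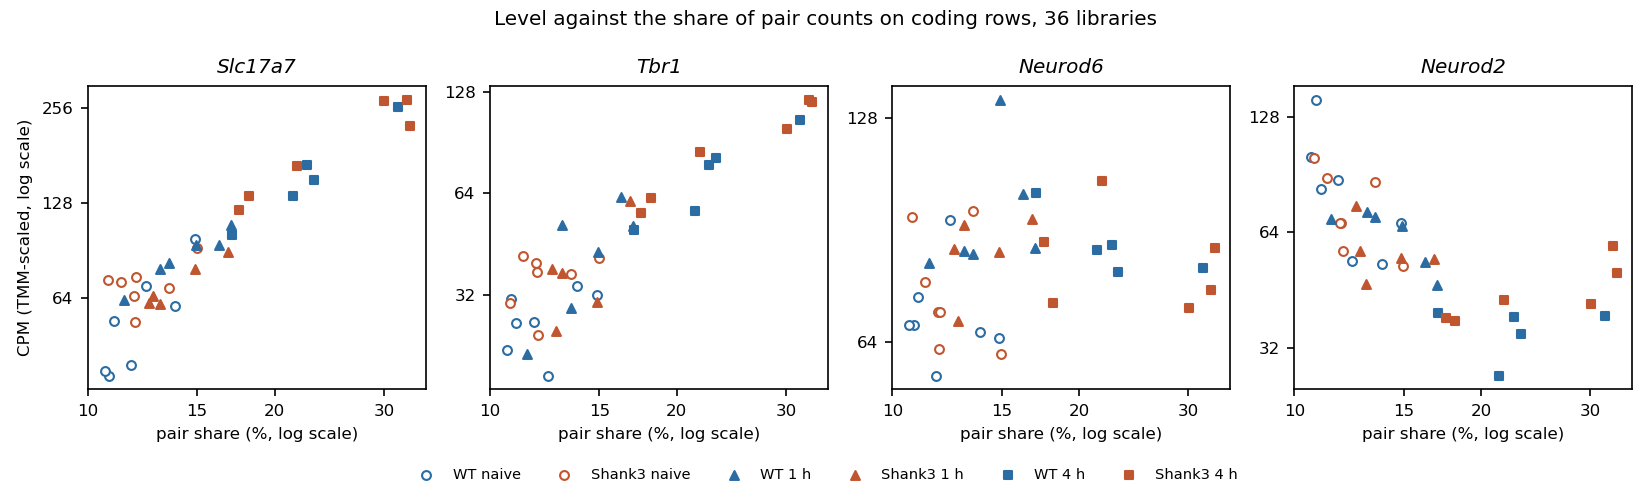
Level (CPM scaled by TMM) against the pair share in each of the 36 libraries, both axes on log scales, for Slc17a7, Tbr1, Neurod6 and Neurod2. Circles are naive, triangles 1 h and squares 4 h, with WT in blue and Shank3 in orange. Slc17a7 and Tbr1 rise along the axis and Neurod6 does not. Neurod2 has a lower mean at 1 h than in naive libraries and a lower one still at 4 h. Swum and naive Shank3 libraries overlap for Neurod2. Among the 4 h libraries Neurod2 does not fall further along the axis.

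In that fit the 4 rises at 4 h were no longer called. Slc17a7 stood at 0.23 in WT (adjusted p = 0.446) and 0.15 in Shank3 (0.771), Tbr1 at 0.36 (0.340) and 0.12 (0.866), Cux2 at 0.14 (0.797) and 0.42 (0.510), and Cux1 at -0.02 (0.978) and -0.09 (0.929). Neurod2 kept its size: -0.90 ± 0.23 in WT at 4 h (adjusted p = 0.00979), -0.57 ± 0.25 in Shank3 at 4 h (0.270), -0.81 ± 0.20 in WT at 1 h (0.00265) and -0.57 ± 0.20 in Shank3 at 1 h (0.0449). Neurod6 passed in WT at 1 h (0.51, adjusted p = 0.0470). The lowest pair share at 4 h was 17.0% and the highest in naive mice 15.0%, so naive and 4 h libraries shared no range. The slope rests on the spread within groups, which at 4 h ran from 17.0% to 33.1%. The parts of the term and of the swim in the 4 h changes cannot be told apart. Without the 4 libraries over 30%, a check chosen after seeing the data, Slc17a7, Tbr1 and Cux2 rose and Neurod2 fell in both genotypes, and Cux1 lost its call in Shank3 (0.34, adjusted p = 0.324). The libraries left out were WT 4 h replicate 5 and Shank3 4 h replicates 1, 3 and 5. The 4 h libraries that stayed, from 17.0% to 23.1%, still lay above the naive range, so this check does not part the swim from the pair share.

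Scaling mattered in the other direction for Neurod2. TMM factors ran from 0.498 to 1.82. On total counts alone Neurod2 stood at -0.08 in WT and 0.46 in Shank3 at 4 h (adjusted p = 0.752 and 0.0657), but the median over all genes then stood at 0.98 and 1.17, against 0.23 and 0.22 with TMM, so Neurod2 was below the median under both. In a separate fit of only genes with no gene opposite, where the low-count filter was applied anew and kept 4266, Neurod2 fell by 1.28 in WT and 0.99 in Shank3 at 4 h, while Slc17a7 rose by 0.88 and 0.93 and Tbr1 by 0.99 and 0.88.

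**Figure D4:**
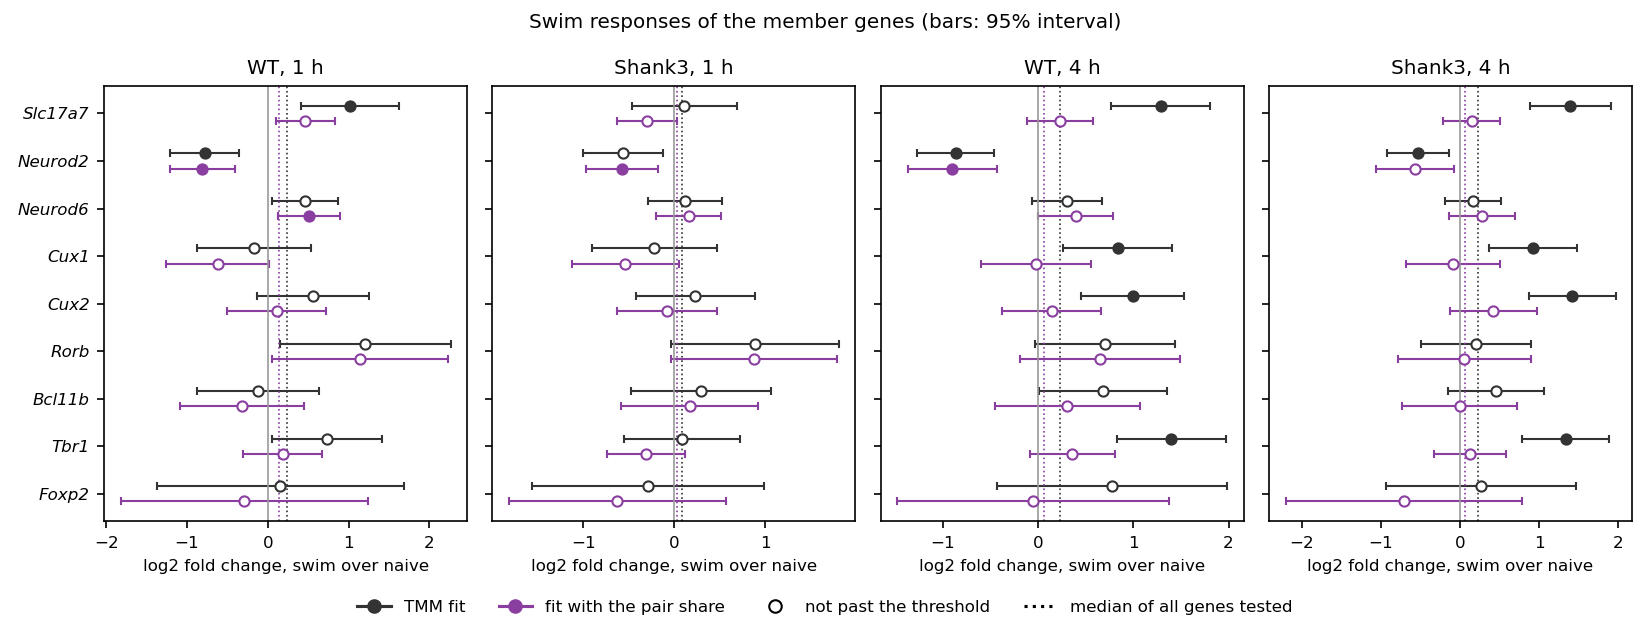
Log2 fold change of each member, swim over naive, in 4 comparisons, with 95% intervals. Black is the TMM fit and purple the fit with the pair share as a term, filled points pass the threshold and open points do not, and dotted lines mark the median of all genes tested. At 4 h the purple values of Slc17a7, Tbr1, Cux2 and Cux1 lie between -0.09 and 0.42, below the black ones, and none passes, while Neurod2 differs little between them.

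Other identity and layer genes were read from lists that had been drawn up with earlier results of these data known. Of 10 tested pyramidal identity genes, 4 rose and 3 fell at 4 h in each genotype, the same 7 genes, where 56% and 62.1% of all genes passed. The list's median was 0.51 in WT and 0.36 in Shank3, against 0.23 and 0.22 for all genes. Camk2a, the kinase subunit whose promoter drove Cre, rose by 0.84 ± 0.22 in WT and 0.88 ± 0.21 in Shank3 (adjusted p = 0.00159 and 0.000646). Bhlhe22, a basic helix-loop-helix factor of cortical neurons, fell by 0.83 ± 0.22 and 1.02 ± 0.21 (0.00215 and 0.000123). With the pair share in the fit, 0 of these 10 passed at 4 h in either genotype, where 7.69% of all genes passed in WT and 0.529% in Shank3.

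At 1 h, 3 of the 10 identity genes rose and 2 fell in WT, where 16.9% of all genes rose and 17.3% fell. In Shank3 mice 1 rose and 1 fell, where 12.2% of all genes passed. Mef2c, an activity-regulated transcription factor, rose by 0.91 ± 0.22 in WT and 0.67 ± 0.22 in Shank3 (adjusted p = 0.00353 and 0.0449). It kept its calls with the pair share in the fit, at 0.67 in WT and 0.47 in Shank3 (adjusted p = 0.00238 and 0.0361). Mef2c has no gene on the opposite strand. Such genes were not free of the pair share: their median slope on it was 0.48, against 0.14 for all genes.

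Of 10 tested upper-layer and layer 4 genes, 2 rose and 0 fell at 4 h in each genotype, with medians of 0.16 in WT and -0.13 in Shank3 against 0.23 and 0.22 for all genes. Rasgrf2, a Ras exchange factor of layer 2 neurons, was in both pairs, at 1.05 ± 0.21 and 0.77 ± 0.21 (adjusted p = 0.000128 and 0.00172). With the pair share in the fit, 0 of the 10 passed in either genotype (Rasgrf2 0.47, adjusted p = 0.142, and 0.07, adjusted p = 0.920), and without the 4 libraries over 30% Rasgrf2 lost its call in Shank3 (0.50, adjusted p = 0.0708). Of 15 tested deep-layer genes, 6 rose and 0 fell in WT and 12 rose and 1 fell in Shank3, with medians of 0.98 and 1.23. Of all genes, 29% rose in WT and 32.7% in Shank3, with medians of 0.23 and 0.22. However, 13 of the 19 listed deep-layer genes with a row have no gene opposite. Of all tested genes of that kind, 38.4% rose in WT and 44.8% in Shank3, with medians of 0.58 and 0.62. Foxp1, a forkhead factor related to Foxp2, rose by 1.502 ± 0.29 and 0.98 ± 0.26 (adjusted p = 6.36e-05 and 0.00162). Crym, a thyroid hormone binding protein of layer 5, rose by 2.01 ± 0.46 and 1.38 ± 0.39 (0.000442 and 0.00264), and Nr4a2, a nuclear receptor of layer 6b and an immediate early gene, by 1.41 ± 0.43 and 1.68 ± 0.41 (0.00615 and 0.000713). With the pair share in the fit, 0 of the 15 rose in either genotype, and Rprm fell in both. Without the 4 libraries over 30%, 6 rose and 1 fell of 13 in WT and 4 rose and 1 fell of 13 in Shank3, where 54% and 41.2% of all genes passed. At 1 h, 4 of the 15 deep-layer genes rose in WT, where 16.9% of all genes rose. In Shank3 mice 1 rose, where 12.2% of all genes passed in either direction. Bcl6, a transcriptional repressor, rose in both genotypes, at 2.09 ± 0.76 and 2.55 ± 0.85 (edgeR adjusted p = 0.0314 and 0.0443). The Bcl6 row lies opposite an exon of another gene, and its mean level was only 5.44 CPM. Both Bcl6 calls were lost with the pair share in the fit (1.65, adjusted p = 0.114, and 2.22, adjusted p = 0.0695).

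The gene with the level most like each of 8 members over the 36 libraries was found among 5484 well-detected genes. It was Cfl1 for Slc17a7 (Pearson r = 0.96), Kcnab2 for Tbr1 (0.94), Bcl11a for Cux2 (0.91), Ptpa for Cux1 (0.88) and Rangap1 for Neurod2 (0.88). The best matches were weaker for Sgip1 with Rorb (0.70), Ddx47 with Neurod6 (0.67) and Rasl10b with Foxp2 (0.51). Cfl1 itself followed the pair share at 0.99, Kcnab2 at 0.94 and Rangap1 at -0.83, so these likenesses are descriptions of libraries that share a scaling and a pair share.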

How the data were processed

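Counts were deposited as whole numbers per gene for each library, raw per the file headers, and are the only unit used. Per the submitters' processing notes, the tools included HISAT2 2.2.0, Salmon 1.4, StringTie 2.1.3, Trimmomatic 0.39, FastQC and DESeq2, with the mm10 build. The tool that made the counts, and its strand setting, are not given in the sources used here. Positions come from the GENCODE vM21 annotation of mm10.

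The model was edgeR 4.0.16 under R 4.3.3 (robust quasi-likelihood test, TMM scaling, low-count filter leaving 11341 genes). All 36 libraries entered 1 model of 8 cells of genotype, treatment and cohort, with 28 residual degrees of freedom. Adjusted p-values are Benjamini-Hochberg over all genes, with a threshold of 0.05, in 11 comparisons. Changes are log2 values with their standard error (SE), and CPM values use TMM library sizes. The scripts were tested on simulated data. DESeq2 1.42.0 and limma 3.58.1 were alternatives. The pair share is the percent of counts of antisense-coding pairs with overlapping exons that lies on the coding rows.

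The members and gene lists were chosen with earlier results of these data known. Named genes are all 9 members, the opposite-strand rows, the most alike gene, and from each list up to 3 genes past the threshold in both genotypes by smallest mean p. Rprm, which fell in 1 list, was named after its values were seen. Some genes that this rule picks are not reported here. No label names the animal behind a library, and p-values then reflect only library-to-library spread, which may be technical. Same-numbered libraries deviated together in 5 of 17 pairs (correlation over 0.1), so numbers were not treated as pairs. Total counts of 0.884 to 3.52 M per library limit the precision of low members.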

Additional observations from a re-analysis of the deposited data

Results flagged for a closer look

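Of 54 groups of 4 to 10 libraries checked, 1 held a library far from the others, and chance flags about 1 in 20. Neurod6 in WT 1 h replicate 3 stood at 135.529 CPM, against 81.8 to 101 CPM in the other 5 libraries of its group. Its gap was 0.636 of the range of the group. The pair share of that library was 14.9%, within its group. No response of a member differed between the genotypes by the test of the difference.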

How the results depend on the processing

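No member passed in the 4 genotype comparisons or the 2 differences of responses under any alternative or with any 1 library left out, 0 members over 308 fits. Of 156 counts of members past the threshold under the alternatives, 140 stayed within 1.5 times the first. Those 140 include every count of the 4 genotype comparisons and the 2 differences of responses. These were 0 in each fit, so the 140 is no measure of stability. The rule also takes WT at 4 h by DESeq2, 7 against 5, as unmoved. The 16 that moved were all in swim or cohort comparisons and follow. On total counts the number was 5 in WT at 1 h, 8 in WT at 4 h and 0 between naive cohorts, against 2, 5 and 1. Of all genes, 4670, 7862 and 1756 then passed, against 3879, 6350 and 1208 in the first fit. In the fit of genes with no gene opposite, which holds neither Cux1 nor Cux2, the number was 1 in WT and 1 in Shank3 at 1 h, and 3 in each at 4 h. Of the genes in that fit, 797 passed in WT and 179 in Shank3 at 1 h, and 1805 and 2184 at 4 h. With no filter on low counts the number was 0 between naive cohorts (1347 genes passed). With a stricter filter it was 1 in Shank3 at 1 h (1529 genes passed). With the pair share as a term the number was 1 in Shank3 at 1 h, 1 in WT at 4 h and 0 in Shank3 at 4 h. Of all genes, 1361, 872 and 60 passed there. With both strands of a pair added the number was 2 between naive cohorts (1352 genes passed). With an additive cohort term it was 4 in WT and 1 in Shank3 at 1 h (4396 and 2905 genes passed). The cause was not tested. With 1 library left out in turn, the number ran from 0 to 3 in WT and 0 to 1 in Shank3 at 1 h, from 4 to 6 in each genotype at 4 h, and from 0 to 1 between naive cohorts. The cohort call of Neurod2 was lost without WT naive replicate 1, 6 or 7 or Shank3 naive replicate 2, 3 or 5 (adjusted p from 0.0591 to 0.109), and Neurod2 passed in Shank3 at 1 h without Shank3 1 h replicate 1 (adjusted p = 0.0402).

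Among members past the threshold, signs turned in 3 cases: Neurod2 in Shank3 at 4 h on total counts (0.46), and Cux1 at 4 h with the pair share as a term (-0.0213 in WT and -0.0949 in Shank3). Members not past the threshold also changed sign in some alternatives, such as Slc17a7 in Shank3 at 1 h (0.11, and -0.29 with the pair share as a term). Leaving out the 4 libraries with a pair share over 30% was chosen after seeing the data.

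Replicate numbers did not pair the libraries: same-numbered libraries had correlations from -0.25 to 0.73. With a replicate block in the edgeR fit the count was 0 between naive cohorts, where 23 of all genes passed. Neurod2 stood there at -0.53 (adjusted p = 0.270), and the other counts stayed within 1.5 times.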
